A study of Mus musculus with 28 samples.

Results

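The serpins form a gene superfamily named for its serine protease inhibitors. A serpin offers an exposed reactive-centre loop as bait, and a protease that cuts the loop is dragged across the serpin and trapped in a covalent complex. Clade A serpins are mostly secreted plasma proteins of the liver, clade B serpins mostly stay inside cells and shield them from leaked proteases, and some members inhibit nothing and serve as hormone carriers or as a collagen chaperone. Medullary thymic epithelial cells (mTECs) transcribe many genes of peripheral tissues and present them to developing T cells, and subsets of mTECs take on programs that resemble gut, liver, tuft and other cell types.

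Members were the rows of the mouse count table whose symbol was Serpin, a clade letter from a to i, a number and at most 1 further letter, and which held at least 10 counts summed over the 28 libraries. This gave 63 genes of 55011 symbols, from 64 that matched the pattern; Serpini2, with 5 counts, was left out. Clade A had 25 members, clade B had 28, and clades C to I had 10. In the GENCODE M21 annotation of GRCm38, 24 members lay in a block on chromosome 12 (chr12:103614786-104414329), 16 in a block on chromosome 13 (chr13:32842092-34002794) and 14 on chromosome 1. Symbols such as Serpinb6a and Serpina1b end in a letter because single human genes have several mouse copies.

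The 28 libraries were bulk RNA sequencing of 1000 sorted C57BL/6 thymic cells each, in 8 groups of 3 or 4. Wild-type mice gave entero-hepato mTECs (3 libraries), a gate named for gut and liver character, and non-entero-hepato mTECs (3 libraries). The other mice all carried Foxn1cre(+/-), a Cre driver of thymic epithelium, together with altered Hnf4a and Hnf4g, which encode paired nuclear receptors of gut and liver. Sorted mTEClo, described by the labels as having passed the Aire-expressing stage, came from double mutants Hnf4a(fl/fl)Hnf4g(-/-) (4 libraries), Hnf4g-removed mice Hnf4a(fl/+)Hnf4g(-/-) (3), Hnf4a-removed mice Hnf4a(fl/fl)Hnf4g(+/-) (3) and controls Hnf4a(fl/+)Hnf4g(+/-) (4), and mTEChi from double mutants (4) and controls (4) of those genotypes. The controls therefore kept 1 wild-type allele of each gene, and the labels name no floxed form of Hnf4g. Ages were not given, and nothing in the labels states that the libraries of a group came from separate mice, so the p-values speak only to variation among the libraries sequenced, part of which may be technical.

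Library totals ran from 4330120 to 8342583 counts. Enterocyte markers fitted the gut side of the entero-hepato label, with a summed level of 4582 to 7007 CPM, read counts divided by scaled library size, in entero-hepato libraries against 223 to 255 CPM in non-entero-hepato libraries, and 8 of 8 were called higher. Hepatocyte markers were mixed, with 3 of 8 higher and 1 lower. Ttr, Trf and Apoh were higher, Ahsg was lower at a mean of 0.249 CPM against 3.71 CPM, and Alb overlapped at 1.93 to 63.9 CPM against 4.01 to 16.6 CPM. Hnf4a and Hnf4g counts cover whole genes and do not separate the deleted exons. Hnf4g had 3.19 to 8.30 CPM in double-mutant mTEClo, 7.58 to 8.77 CPM in Hnf4g-removed, 6.23 to 9.20 CPM in Hnf4a-removed and 9.0 to 15.6 CPM in control mTEClo. Hnf4a had 2.25 to 4.22 CPM in double-mutant mTEClo and 2.25 to 6.86 CPM in control mTEClo, so neither gene's count marks each removal. The kit did not mark strand, and in bulk samples fewer cells of a type and less RNA per cell cannot be told apart.

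Serpin transcripts held 0.763% of all counts on average in entero-hepato libraries and 0.234% in non-entero-hepato libraries. In mTEClo the mean share was 0.226% in double mutants, 0.233% in Hnf4g-removed, 0.349% in Hnf4a-removed and 0.368% in control libraries, and in mTEChi it was 0.392% in double mutants and 0.519% in controls. Per kilobase of annotated exon, the 6 members of highest level over all libraries were Serpinb1a at 411 CPM/kb, Serpinb2 at 176, Serpinb9 at 145, Serpinb6b at 119, Serpinb6a at 109 and Serpina7 at 91.2. They were followed by Serpinb11 at 70.8, Serpinb12 at 44.3, Serpina3g at 40.5 and Serpina3j at 35.7 CPM/kb. Serpinb1a ranked first per kilobase in 6 of the 8 groups and Serpinb2 in the other two, the double-mutant and Hnf4g-removed mTEClo. Spread between replicates grew as levels fell. Members averaging over 100 CPM had a median coefficient of variation within groups of 20.5% (8 members), and those at 1 CPM or less had 128% (10 members).

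**Figure D1:**
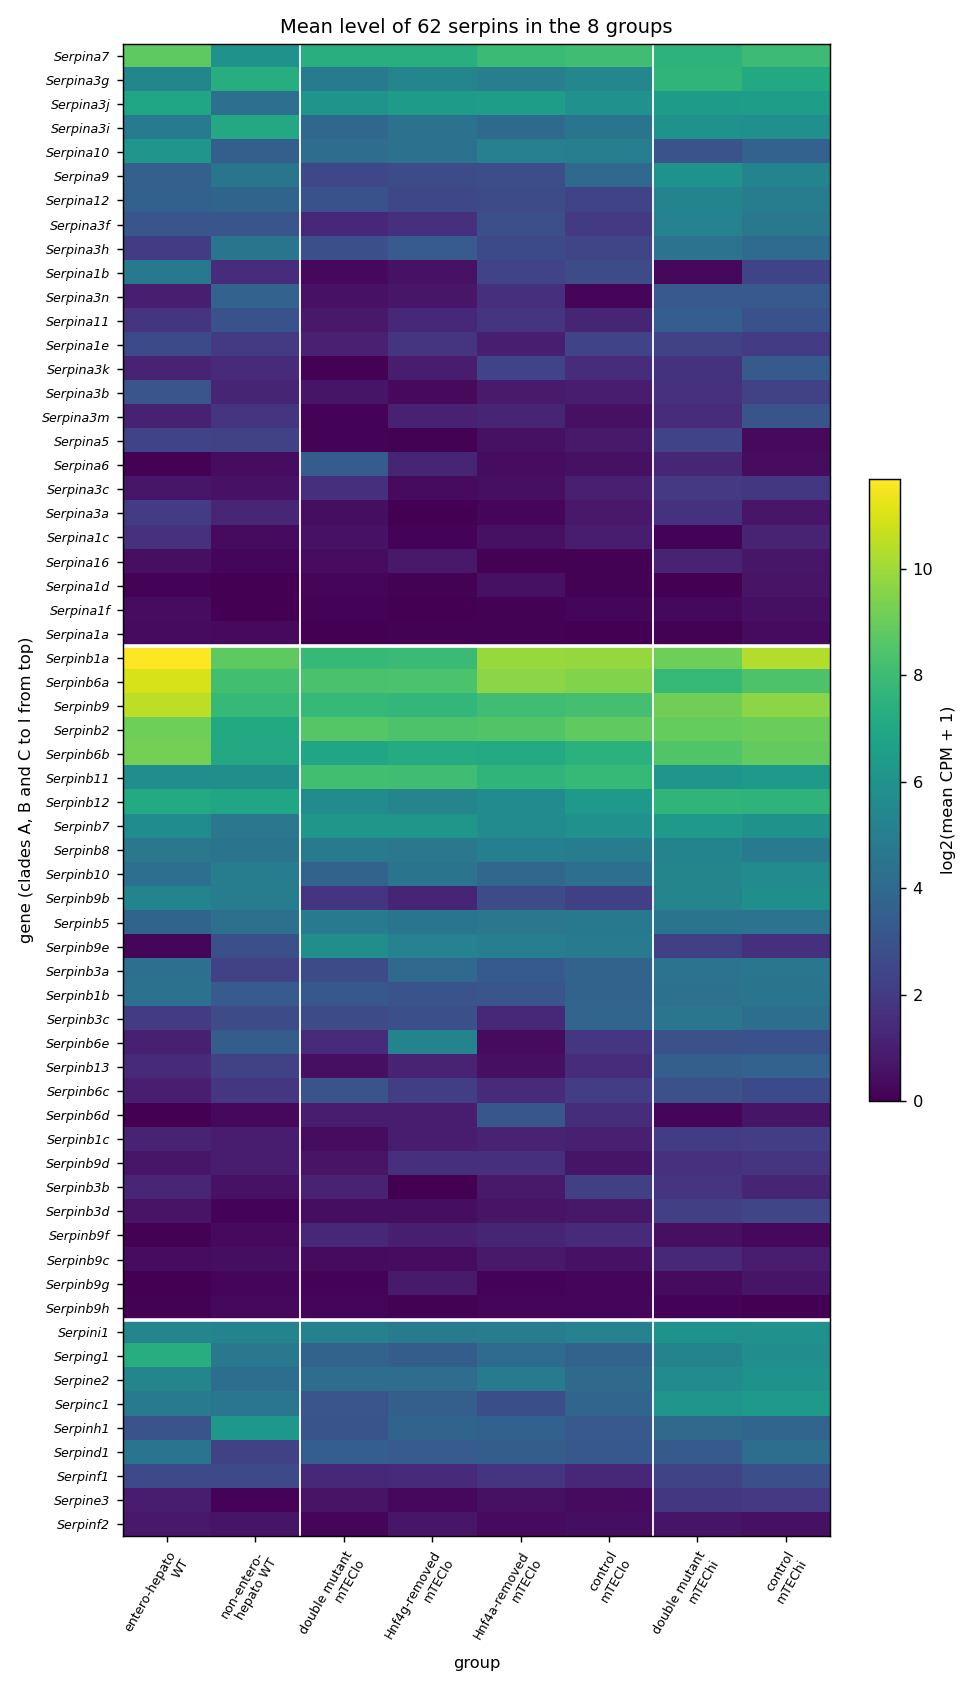
Heat map of log2(mean CPM + 1) for 62 of the 63 serpin members (rows) in the 8 groups (columns), where each cell is the mean of 3 or 4 libraries. Serpinb1a, Serpinb6a and Serpinb9 are brightest in the entero-hepato column, at 3282, 1992 and 1477 CPM, and most Serpina1 rows stay dark throughout.

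Paralogs limit what a count can say, because the reads were 38 bases long. Of all members, 22 shared over 20% of their 38-base windows with other annotated genes, and 16 shared none. Among the alpha-1-antitrypsin genes the shared percentage was 62.3% for Serpina1a, 38.4% for Serpina1b, 83.0% for Serpina1c, 59.1% for Serpina1d, 46.1% for Serpina1e and 0.345% for Serpina1f. The coding sequences of Serpina1a to Serpina1e were each 1239 bases long and 96.3% to 98.5% identical in pairs, with 86 positions that varied among the 5 genes. Of 1091 coding windows of 38 bases within exons, 360 were identical in all 5, so a read from them cannot be assigned by its own letters. Reads came in pairs, and how often the mate separates the copies was not tested. One such window, coding bases 58 to 95, is shown here from Serpina1b (GENCODE M21, GRCm38, chr12:103732494-103732531, minus strand), and the 5 lines after it give the window that varies most, coding bases 1114 to 1151, with the 14 varying positions in capitals. The varied window encodes part of the reactive-centre loop, the bait that sets which protease is caught.
Serpina1a to Serpina1e, identical: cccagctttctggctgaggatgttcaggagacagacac
Serpina1a (chr12:103853766-103853803, minus strand): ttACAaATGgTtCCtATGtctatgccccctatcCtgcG
Serpina1b (chr12:103728333-103728370, minus strand): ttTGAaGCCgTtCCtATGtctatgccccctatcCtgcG
Serpina1c (chr12:103895103-103895140, minus strand): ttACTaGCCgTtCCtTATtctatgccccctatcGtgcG
Serpina1d (chr12:103763771-103763808, minus strand): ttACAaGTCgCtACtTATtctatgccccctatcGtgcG
Serpina1e (chr12:103947109-103947146, minus strand): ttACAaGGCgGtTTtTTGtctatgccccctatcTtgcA
Serpinb6a shared 27.3% of its windows, mostly with the antisense genes Nqo2 (12.9%), 1110046J04Rik (9.07%) and Ripk1 (3.65%) rather than with Serpinb6b, Serpinb6c, Serpinb6d or Serpinb6e, whose own shared percentages were 2.56% to 17.4%. Serpinc1 shared 34.6%, of which 33.4% was with antisense Zbtb37, and Serpinb1a and Serpinb9 shared only 6.68% and 2.43%.

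The promoters were searched because the mutants lack factors that bind DNA. RefSeq promoter entries on GRCm38.p6, 250 bases before to 50 after the start, were matched for 53 members as 62 entries. HNF4 receptors are known to bind a repeat whose half-site reads AGTCCA, and this 6-letter half-site stood on either strand in 10 of the 62 member entries (16.1%) and in 14.1% of all 32851 entries. The longer form CAAAGTCCA, which contains the half-site, was in none of the member entries and in 0.475% of all. The form CAAAGTNCA, which contains the longer one, was in 1 member entry, Serpind1, and in 1.41% of all. Of 39 members called in at least 1 comparison, 31 had an entry and 5 of these held the half-site, namely Serpina1b, Serpinb6a, Serpina3g, Serpina3j and Serpinb1c. The other 8 had no entry and were not searched, Serpinb1a, Serpina10 and Serping1 among them. The same 75-base stretch of the 5 Serpina1 promoters is printed with the 6 letters at the half-site's place in capitals; the half-site is on the opposite strand there, as TGGACT, and Serpina1c and Serpina1e hold other letters at that place. In Serpinb6a the capitals mark AGTCCA on the strand of the gene. A match describes letters, not binding.
Serpina1a (chr12:103863670-103863744, minus strand): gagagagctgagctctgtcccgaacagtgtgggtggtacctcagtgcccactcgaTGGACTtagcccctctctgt
Serpina1b (chr12:103738245-103738319, minus strand): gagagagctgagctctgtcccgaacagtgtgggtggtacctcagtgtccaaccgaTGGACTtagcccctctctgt
Serpina1c (chr12:103905007-103905081, minus strand): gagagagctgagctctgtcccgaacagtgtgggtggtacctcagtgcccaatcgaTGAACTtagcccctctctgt
Serpina1d (chr12:103773679-103773753, minus strand): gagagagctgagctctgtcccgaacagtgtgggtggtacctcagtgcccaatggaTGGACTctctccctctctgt
Serpina1e (chr12:103957005-103957079, minus strand): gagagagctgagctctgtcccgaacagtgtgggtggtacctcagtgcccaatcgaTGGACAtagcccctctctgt
Serpinb6a (chr13:34002887-34002940, minus strand): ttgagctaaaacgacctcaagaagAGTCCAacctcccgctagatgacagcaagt

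The first comparison asks which serpins mark the mTECs of gut and liver character. The intracellular inhibitors Serpinb1a, Serpinb6a and Serpinb9 were 6.42-fold to 7.41-fold higher in wild-type entero-hepato mTECs than in non-entero-hepato mTECs, and the plasma serpins Serpina1b, Serpina7 and Serpina10 were 6.23-fold to 14.1-fold higher. The collagen chaperone Serpinh1 and several Serpina3 copies were lower. Of 41 members that passed the filter on low counts, 15 were called higher and 7 lower, where a call is a Benjamini-Hochberg adjusted p under 0.05 in edgeR's quasi-likelihood test over all genes. Over all genes tested 22.7% were higher and 21.8% lower. The median log2 fold change was 0.21 over the members and -0.05 over all genes, and the median over members was 0.32 without entero-hepato library 3 and 0.47 without non-entero-hepato library 1. By position, the chromosome 13 block gave 5 higher and 1 lower of 8 tested, the chromosome 12 block 4 and 4 of 14, and chromosome 1 gave 3 and 1 of 12.

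Clade B gave 8 higher and 2 lower calls among 18 members tested. Serpinb1a (chr13:32842092-32851185, minus strand) encodes an inhibitor of the neutrophil proteases elastase, cathepsin G and proteinase 3. It had 3349, 3167 and 3331 CPM in entero-hepato libraries, against 517, 373 and 426 CPM in non-entero-hepato libraries. The groups did not overlap, and the log2 fold change was 2.89 ± 0.12 (SE, edgeR, adjusted p = 1.17e-06). The test itself reports no SE. Here, below and in the figures, SE is the absolute log2 fold change over the square root of edgeR's F statistic. It is rough where libraries are at 0. Serpinb6a (chr13:33917918-34002794, minus strand), an intracellular inhibitor whose known targets include cathepsin G, had 2123, 2031 and 1822 CPM in entero-hepato libraries and 333, 258 and 249 CPM in non-entero-hepato libraries. Every entero-hepato library was far above every other one, with a log2 fold change of 2.82 ± 0.13 (SE, edgeR, adjusted p = 1.68e-06). The antisense neighbours 1110046J04Rik, Ripk1 and Nqo2, which share windows with it, were also higher. Their log2 fold changes were 2.85, 0.83 and 0.39 (edgeR, adjusted p = 0.000400, 0.0168 and 0.0215). How reads divide between Serpinb6a and these genes was not tested.

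Serpinb9, the inhibitor of granzyme B, had 1553, 1363 and 1514 CPM in entero-hepato libraries, against 239.8, 209 and 234 CPM in non-entero-hepato libraries. Its 3 replicates lay close together in both groups, and it gave the smallest p of the family (log2 fold change 2.68 ± 0.09, SE; edgeR, adjusted p = 8.54e-07). Serpinb6b, a paralog of Serpinb6a with 4.97% of its windows shared, had 637, 542 and 613 CPM in entero-hepato libraries and 121, 132 and 137 CPM in non-entero-hepato libraries. Serpinb2, also called plasminogen activator inhibitor 2, had 653, 544 and 459 CPM in entero-hepato libraries and 99.6, 147 and 163 CPM in non-entero-hepato libraries. Neither pair of groups overlapped, and the log2 fold changes were 2.19 ± 0.10 and 2.00 ± 0.20 (SE). The other higher clade B members were at low levels. Serpinb3a, a mouse relative of the human squamous cell carcinoma antigens, had 16.4, 18.8 and 20.4 CPM in entero-hepato libraries against 0.633, 2.17 and 8.68 CPM in non-entero-hepato libraries, which do not overlap (log2 2.24 ± 0.67, SE; edgeR, adjusted p = 0.0250). Without the third non-entero-hepato library its log2 fold change was 3.70, and it was not called without entero-hepato library 2 or 3 (adjusted p = 0.0544 and 0.0596) or non-entero-hepato library 2 (adjusted p = 0.0820). Serpinb1b averaged 19.9 ± 1.97 CPM in entero-hepato and 9.19 ± 4.40 CPM in non-entero-hepato libraries (SD, n = 3 each), and Serpinb7 averaged 50.2 ± 19.6 and 23.5 ± 9.96 CPM in the same order, with groups that overlapped.

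The 2 clade B members that were lower were Serpinb9e and Serpinb10. Serpinb9e, a copy of the Serpinb9 family that shares 38.7% of its windows, had 0.430, 0 and 0 CPM in entero-hepato libraries and 5.07, 8.70 and 5.05 CPM in non-entero-hepato libraries. These groups did not overlap (log2 -5.36 ± 0.88, SE; edgeR, adjusted p = 0.00129), and the fitted size rests on 1 library, since it was -7.99 without the first entero-hepato library. Serpinb10, annotated as a pseudogene that shares exons with Serpinb2, had 18.3, 17.7 and 19.3 CPM in entero-hepato libraries against 28.5, 28.3 and 29.3 CPM in non-entero-hepato libraries, a small and even gap (log2 -0.65, adjusted p = 0.0107).

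**Figure D2:**
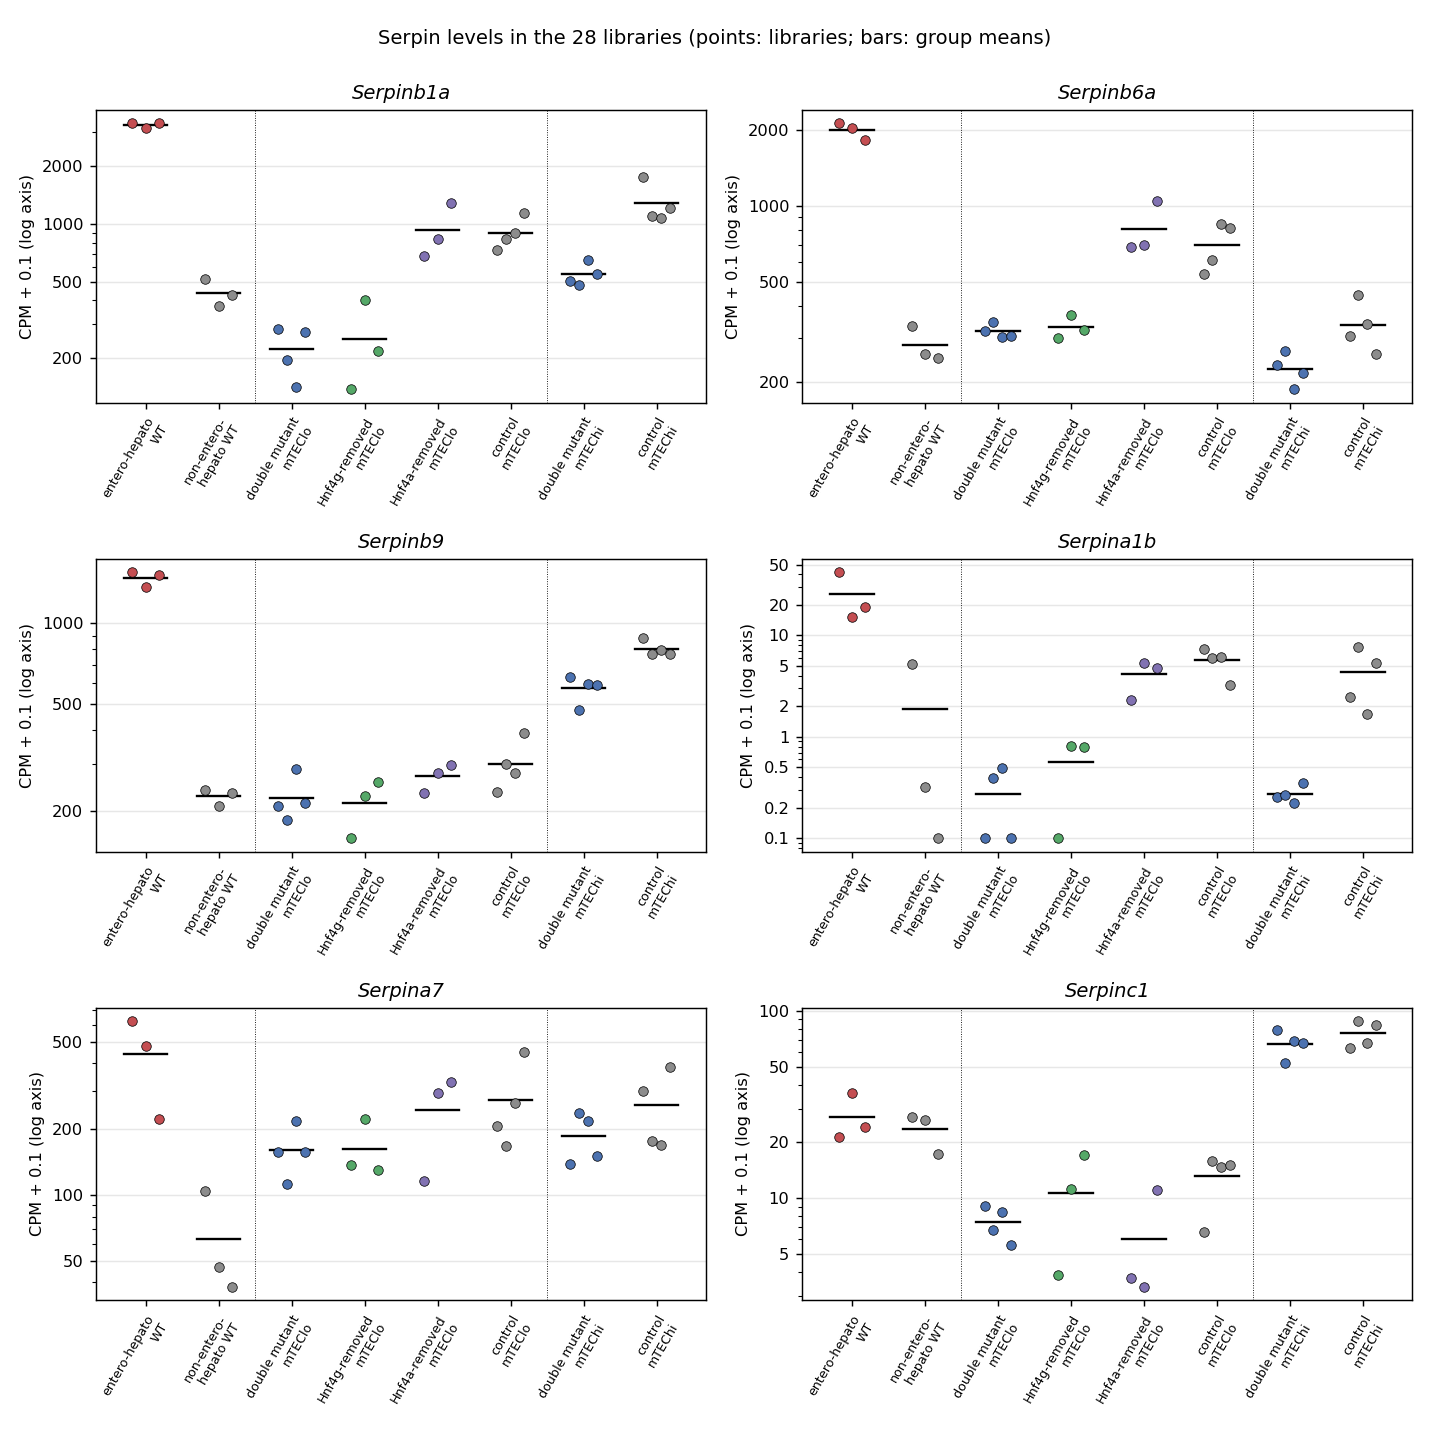
Levels of 6 serpins in each of the 28 libraries, as CPM + 0.1 on a log axis, with 1 panel a gene, points for libraries and bars for group means. Serpinb1a, Serpinb6a and Serpinb9 are highest in entero-hepato libraries, Serpina1b drops near the bottom of the axis in double-mutant and Hnf4g-removed libraries, and Serpinc1 is highest in mTEChi.

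Clade A split in direction, with 5 higher and 4 lower calls among 15 members tested. Serpina1b (chr12:103728156-103830373, minus strand) encodes alpha-1-antitrypsin, the major plasma inhibitor of neutrophil elastase. It had 42.2, 15.1 and 19.0 CPM in entero-hepato libraries, against 5.07, 0.217 and 0 CPM in non-entero-hepato libraries. The groups did not overlap but spread widely (log2 3.81 ± 0.96, SE; edgeR, adjusted p = 0.0112), and the log2 fold change was 7.60 without the first non-entero-hepato library and missed the threshold in DESeq2 (adjusted p = 0.0586, the largest over 10 alternatives). Serpina7, the thyroxine-binding globulin and no protease inhibitor, had 626, 480.3 and 222 CPM in entero-hepato libraries and 104, 46.8 and 38.0 CPM in non-entero-hepato libraries. Its 3 entero-hepato libraries spread widely, yet the groups did not overlap (log2 2.80 ± 0.45, SE; edgeR, adjusted p = 0.00112). Serpina10, the protein Z-dependent inhibitor of coagulation factor Xa, had 80.7, 54.4 and 63.3 CPM in entero-hepato libraries against 14.4, 5.00 and 11.9 CPM in non-entero-hepato libraries (log2 2.64 ± 0.32, SE). Serpina1e, which shares 46.1% of its windows with its copies, was not called, with 12.5, 2.42 and 0.527 CPM in entero-hepato libraries and 7.60, 0.435 and 0.808 CPM in non-entero-hepato libraries. Serpina1a, Serpina1c, Serpina1d and Serpina1f were tested in none of the comparisons, and their highest values in any library were 1.02, 5.27, 1.31 and 1.01 CPM.

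The Serpina3 genes are mouse copies of the gene for human alpha-1-antichymotrypsin, and 2 of the 7 tested were higher and 4 lower. Serpina3j had 149.6, 128 and 82.9 CPM in entero-hepato libraries and 19.6, 23.0 and 11.7 CPM in non-entero-hepato libraries (log2 2.71, adjusted p = 9.50e-05). Serpina3b, the other higher one, averaged 7.57 ± 1.17 CPM in entero-hepato and 1.32 ± 1.38 CPM in non-entero-hepato libraries (SD, n = 3 each). The opposite order held for Serpina3g, a mouse inhibitor of lysosomal cathepsins, with 35.3, 43.4 and 40.4 CPM in entero-hepato libraries and 174, 125 and 159 CPM in non-entero-hepato libraries. Serpina3i had 31.0, 21.4 and 25.7 CPM in entero-hepato libraries against 140.2, 119.8 and 129 CPM in non-entero-hepato libraries. Serpina3h, annotated as a pseudogene, had 2.58, 3.54 and 3.16 CPM in entero-hepato libraries against 21.3, 19.4 and 25.2 CPM in non-entero-hepato libraries, and Serpina3n had 0.646, 1.12 and 1.23 CPM against 17.7, 7.83 and 9.90 CPM. All 4 lower members had groups apart, with log2 fold changes of -1.95, -2.34, -2.83 and -3.53 in the order given. Serpina3g, Serpina3h and Serpina3i share 22.8%, 32.2% and 22.5% of their windows with other genes, so their separate levels are uncertain.

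Outside these clades, 2 members were higher and 1 lower of 8 tested. Serping1, the C1 inhibitor of complement and kallikrein, had 204, 96.8 and 164 CPM in entero-hepato libraries against 24.1, 27.0 and 23.0 CPM in non-entero-hepato libraries (log2 2.63 ± 0.25, SE; edgeR, adjusted p = 6.10e-05). Serpind1, heparin cofactor II, which inhibits thrombin, had 29.1, 21.8 and 15.1 CPM in entero-hepato libraries and 4.22, 3.91 and 3.03 CPM in non-entero-hepato libraries. Both sets of libraries were apart. Serpinh1, the chaperone of procollagen also called Hsp47, was the lower one, with 7.32, 5.03 and 8.61 CPM in entero-hepato libraries and 83.6, 71.5 and 64.4 CPM in non-entero-hepato libraries (log2 -3.40 ± 0.21, SE; edgeR, adjusted p = 6.29e-06). Serpinc1 (chr1:160978585-161005863, plus strand) encodes antithrombin, the liver's inhibitor of thrombin. It had 21.1, 36.2 and 23.9 CPM in entero-hepato libraries, against 26.8, 25.9 and 17.0 CPM in non-entero-hepato libraries, which overlapped (log2 0.21 ± 0.27, SE; edgeR, adjusted p = 0.557).

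**Figure D3:**
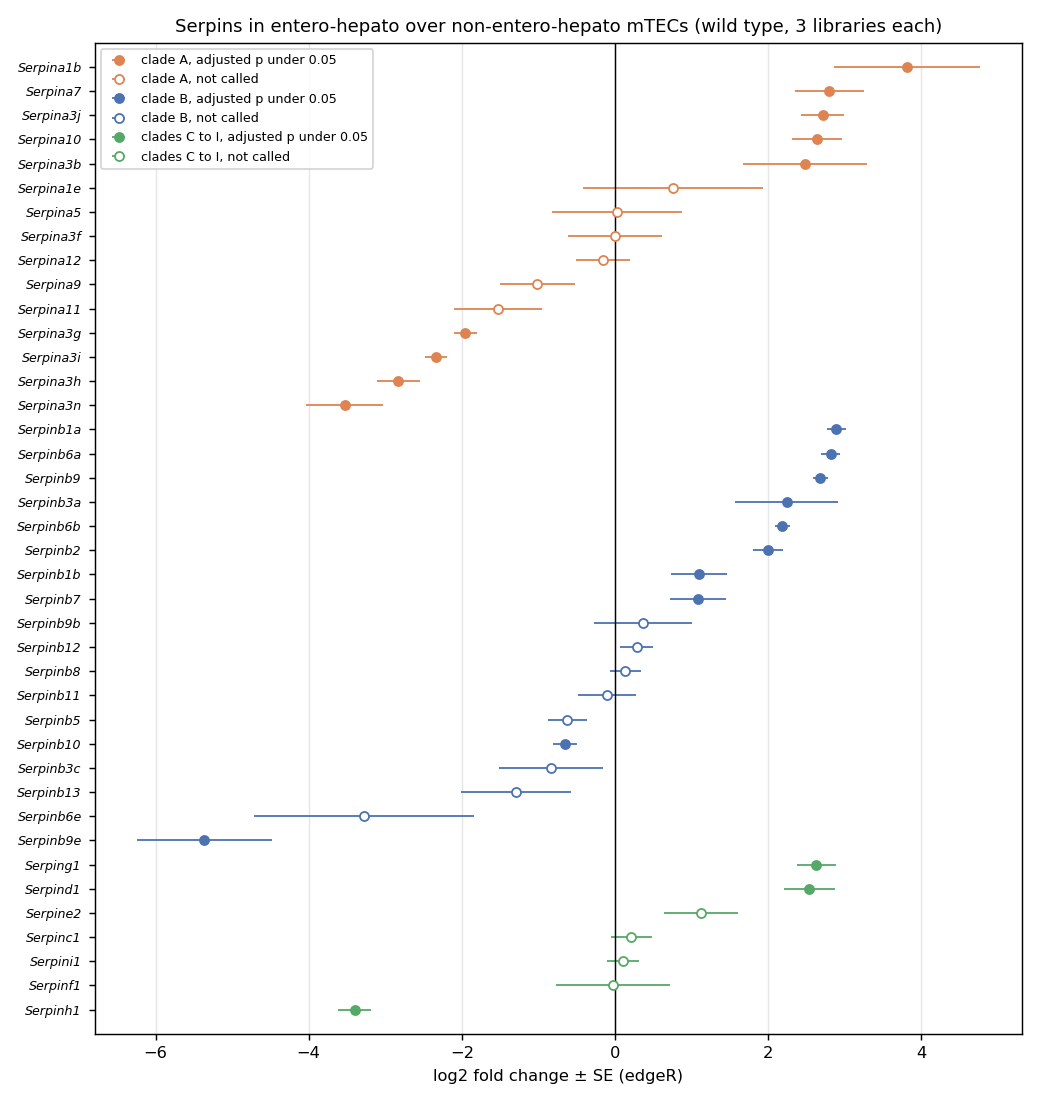
Log2 fold change (entero-hepato minus non-entero-hepato) of 40 of the 41 tested serpins, with bars of ± 1 SE and filled points for adjusted p under 0.05, arranged by clade. Serpinb1a, Serpinb6a, Serpinb9 and Serpinb6b stand between 2.19 and 2.89 with short bars, while Serpina1b at 3.81 has a long one.

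Other gene groups moved between these gates as well. Tuft markers summed to 126 to 290 CPM in entero-hepato libraries and 1518 to 2331 CPM in non-entero-hepato libraries, and 5 of 6 red cell markers were higher, at a summed 173 to 253 CPM against 16.8 to 27.2 CPM. Markers of microfold cells, the antigen-sampling cells of the gut epithelium, were higher in 6 of 6, at a summed 2625 to 3382 CPM against 798 to 875 CPM. Myeloid and dendritic markers summed to 577 to 945 CPM in entero-hepato and 237 to 401 CPM in non-entero-hepato libraries. Of 7 tested, 2 (Csf1r and Lyz2) were called higher and 0 lower. Ciliated cell markers had 5 of 6 called lower, at a summed 52.3 to 71.2 CPM against 113 to 204 CPM. Cytosolic ribosomal protein genes held 0.755% to 0.935% of counts in entero-hepato libraries against 2.09% to 2.21% in non-entero-hepato libraries. TMM scaling over all 28 libraries adds 0.38 to a log2 fold change between these groups relative to plain totals. Taking 0.38 off turned the sign of no called serpin. The shift within the fit of the 6 wild-type libraries was not computed. Aire was 669 to 1089 CPM in entero-hepato libraries and 1609 to 1719 CPM in non-entero-hepato libraries. Their part in the serpin differences was not tested.

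Among 68 listed proteases, cofactors and other inhibitors that work with serpins, 22 of 58 tested were higher and 3 lower in entero-hepato mTECs. The higher ones of smallest p were Casp1, which encodes caspase-1 (log2 1.73 ± 0.09, SE), Ctsb, cathepsin B (1.66 ± 0.09), Tmprss2, a membrane serine protease (3.89 ± 0.21), and Spink1, a pancreatic trypsin inhibitor (4.46 ± 0.24). F10, coagulation factor X and the precursor of the Serpina10 target, averaged 89.4 CPM in entero-hepato and 7.09 CPM in non-entero-hepato libraries. The lower ones were C1s1 (-1.49) and C1ra (-0.94), complement proteases held by the C1 inhibitor, and Ctsl, cathepsin L (-1.71). The neutrophil elastase gene Elane, a target of Serpinb1a and Serpina1b, averaged 0.206 CPM in entero-hepato and 0.135 CPM in non-entero-hepato libraries, and Gzmb, granzyme B, 3.60 and 4.32 CPM in the same order.

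In mTEClo, the double mutants test the loss of both Hnf4 genes. Serpinb1a, Serpinb6a and Serpina1b fell in double-mutant mTEClo, to 0.249, 0.453 and 0.0340 of the control level in the fit, and no member was called higher. These were 3 lower and 0 higher calls among 44 members tested, beside 0.581% lower and 0.16% higher over all genes. DESeq2 called 1 member higher, Serpinb9e (log2 0.97, adjusted p = 0.0427), beside 112 higher of 20148 genes. With no filter on low counts edgeR called 2 members higher and 12 lower, beside 224 higher and 743 lower of 45471 genes. The median log2 fold change was -0.55 over the members and -0.00147 over all genes. The median over members was -0.16 without control library 4 and -0.35 without double-mutant library 2, and -0.32 with the replicate number as a block. All mTEClo comparisons with control share the same 4 control libraries.

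Serpinb1a had 285, 195, 142 and 273 CPM in double-mutant mTEClo, against 727, 838, 894 and 1145 CPM in control mTEClo. The highest double-mutant library lay well below the lowest control library (log2 -2.01 ± 0.29, SE; edgeR, adjusted p = 0.00554). Serpinb6a had 318, 347, 303 and 305 CPM in double-mutant mTEClo and 537, 607, 848 and 815 CPM in control mTEClo, again apart (log2 -1.14 ± 0.15, SE; edgeR, adjusted p = 0.00274). Its antisense neighbours Nqo2 and Ripk1 had log2 fold changes of 0.08 and 0.17 and were not called (adjusted p = 0.865 and 0.784), whereas 1110046J04Rik was lower (log2 -1.92, adjusted p = 0.0186). Serpina1b had 0, 0.290, 0.396 and 0 CPM in double-mutant mTEClo, against 7.28, 5.89, 6.05 and 3.15 CPM in control mTEClo. It was close to absent in all 4 mutant libraries (log2 -4.88 ± 0.82, SE; edgeR, adjusted p = 0.0125), and the fitted size was -5.63 without the third of them. All 3 genes were called under each of the 14 other settings tried.

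Other serpins high in the entero-hepato gate were not called in double-mutant mTEClo by edgeR with its filter on low counts. Without that filter, 12 members were lower and 2 higher. Serpinb9, Serpinb6b, Serpina10 and Serpina7 were among the lower ones (edgeR adjusted p = 0.0189, 0.000733, 0.00578 and 8.66e-08). Serpinb6b was also called lower without the 3 mTEClo libraries numbered 1 of the control and single-removal groups (log2 -0.72, edgeR adjusted p = 0.0384). That setting was chosen after seeing the data. Serpinb9 had 209.7, 186, 287 and 214 CPM in double-mutant mTEClo and 236, 299, 278 and 389.5 CPM in control mTEClo, with overlap (log2 -0.43). Serpinb6b averaged 117 ± 9.94 CPM in double-mutant and 173 ± 64.2 CPM in control mTEClo (SD, n = 4 each), and Serpina10 averaged 17.3 ± 7.03 and 30.5 ± 5.35 CPM in the same order (log2 -0.81, adjusted p = 0.185). Serpina7 was also uncalled, at log2 -0.75. Serpinc1 had 8.97, 6.68, 8.32 and 5.53 CPM in double-mutant mTEClo and 6.49, 15.7, 14.6 and 14.9 CPM in control mTEClo (log2 -0.81, adjusted p = 0.497). Serpina1e ranged from 0 to 2.25 CPM in double-mutant and from 1.00 to 5.90 CPM in control mTEClo, overlapping, with a log2 fold change of -1.82 (adjusted p = 0.398). Serpinb9e stood at 53.1, 56.5, 59.4 and 43.7 CPM in double-mutant mTEClo, above 30.1, 39.4, 22.0 and 16.3 CPM in control mTEClo without overlap, yet it was not called (log2 0.98, adjusted p = 0.171).

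Of the 10 mTEC markers 0 were called in edgeR, and 7 had an unadjusted p under 0.05. Aire was 143 to 228 CPM in double-mutant and 204 to 550.0 CPM in control mTEClo, which overlapped, and H2-Aa was 886 to 1147 CPM against 1388 to 2445 CPM. Tuft markers summed to 9558 to 10312 CPM in double-mutant and 6642 to 8876 CPM in control mTEClo, with 2 of 8 called higher. Enterocyte markers summed to 75.9 to 102 CPM in double-mutant and 241 to 392 CPM in control mTEClo, with 5 of 8 called lower. Microfold markers had 3 of 6 called lower, at a summed 2605 to 3005 CPM in double-mutant and 2796 to 3916 CPM in control mTEClo, and of the hepatocyte markers Ttr was lower. Their part in the serpin results was not tested. Of the serpin partners, 3 of 60 were lower and 0 higher in double-mutant mTEClo, namely Tmprss2 (log2 -0.70), F10 (-3.12) and Ctsh, cathepsin H (-0.73).

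**Figure D4:**
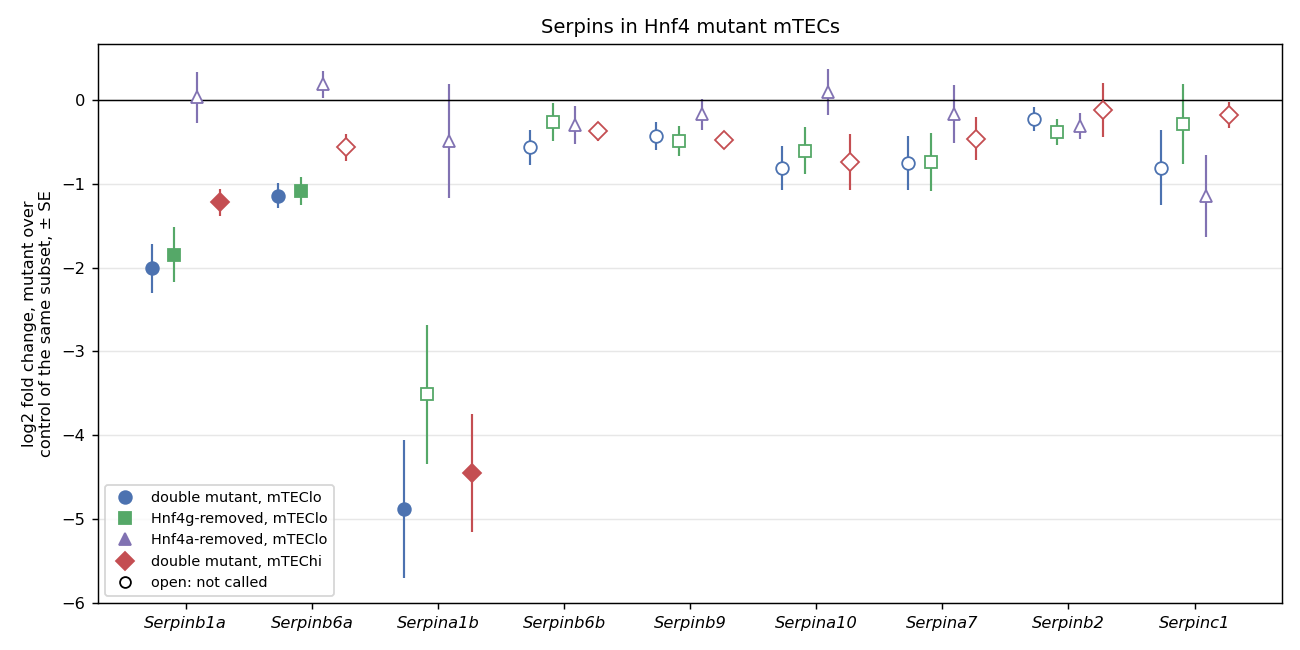
Log2 fold changes of 9 serpins in 4 mutant comparisons with control of the same sorted subset, with bars of ± 1 SE and filled points for adjusted p under 0.05. Serpinb1a, Serpinb6a and Serpina1b lie below 0 in double-mutant and Hnf4g-removed mTEClo, and Serpinb1a and Serpinb6a lie near 0 in Hnf4a-removed mTEClo, at 0.03 and 0.19.

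Removing Hnf4g alone was tested next. Serpinb1a and Serpinb6a fell in Hnf4g-removed mTEClo, 2 of 44 members tested, and none was called higher. Over all genes 0.0959% were lower and 0% higher. Serpinb1a had 138, 400.1 and 218 CPM in Hnf4g-removed mTEClo, all below the 727 to 1145 CPM of control mTEClo (log2 -1.84 ± 0.32, SE; edgeR, adjusted p = 0.0420). This call was fragile, since it was lost in 9 of 13 other settings. The adjusted p was 0.0578, 0.0796, 0.0840 and 0.114 without control library 1, 2, 3 or 4, and 0.142 and 0.105 without Hnf4g-removed library 1 or 3. Serpinb6a had 299, 369 and 322 CPM in Hnf4g-removed mTEClo, all below the 537 to 848 CPM of controls (log2 -1.09 ± 0.17, SE; edgeR, adjusted p = 0.0162), and was lost in 4 of 13 settings, without control library 3 or 4 (adjusted p = 0.0567 and 0.0510) or Hnf4g-removed library 1 or 3 (0.0898 and 0.0518). Serpina1b had 0, 0.705 and 0.692 CPM in Hnf4g-removed mTEClo and 3.15 to 7.28 CPM in controls, which did not overlap, but it missed the threshold in edgeR (log2 -3.51 ± 0.83, SE; adjusted p = 0.182) and passed it in DESeq2 (adjusted p = 0.000891). Serpinb6e, a paralog of Serpinb6a, held 74.1, 34.9 and 2.49 CPM in Hnf4g-removed mTEClo and was not called (log2 3.84, adjusted p = 0.279). Aire in the same 3 libraries was 163, 715 and 636 CPM. Enterocyte markers summed to 82.7 to 153 CPM in Hnf4g-removed and 241 to 392 CPM in control mTEClo, with 3 of 8 called lower (Fabp1, Muc13 and Vil1), and 1 of 6 microfold markers, Ccl9, was called lower. Their part in the serpin results was not tested.

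Removing Hnf4a alone gave 0 calls among 44 members tested in edgeR. At an unadjusted p under 0.05 there were 4 members, beside 6.02% of all genes, DESeq2 called 0, and over all genes 0.00533% were called higher and 0% lower. Serpinb1a had 682, 832 and 1284 CPM in Hnf4a-removed mTEClo, spanning the 727 to 1145 CPM of controls (log2 0.03 ± 0.30, SE; edgeR, adjusted p = 0.997). Serpinb6a had 686, 699 and 1040.4 CPM in Hnf4a-removed mTEClo against 537 to 848 CPM in controls (log2 0.19 ± 0.16, SE), and Serpina1b had 2.19, 5.30 and 4.63 CPM in Hnf4a-removed mTEClo against 3.15 to 7.28 CPM in controls (log2 -0.49 ± 0.68, SE). All 3 genes overlapped the controls. Serpinc1 was at 3.65, 3.24 and 10.9 CPM in Hnf4a-removed mTEClo, with a log2 fold change of -1.15 that was not called (adjusted p = 0.830).

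The single removals were also set against each other directly. Serpinb6a was lower in Hnf4g-removed than in Hnf4a-removed mTEClo, at 299 to 369 CPM against 686 to 1040.4 CPM (log2 -1.28 ± 0.18, SE; edgeR, adjusted p = 0.0106), the only call among 44 members, where 0.0586% of all genes were lower and 0.00533% higher. Without the third Hnf4a-removed library its adjusted p was 0.0592, and in a fit of the compared groups alone 0.119. Serpinb1a, at 138 to 400.1 CPM against 682 to 1284 CPM, did not overlap and missed the threshold in edgeR (log2 -1.88 ± 0.34, SE, adjusted p = 0.0572). Serpina1b, at 0 to 0.705 CPM against 2.19 to 5.30 CPM, had a log2 difference of -3.02 (edgeR, adjusted p = 0.366). DESeq2 called Serpinb1a and Serpina1b lower (adjusted p = 0.00219 and 0.0218) and Serpinb6e higher (log2 7.17, adjusted p = 0.0258). Over all genes DESeq2 called 59 lower and 36 higher of 19284. Without Hnf4g-removed library 2, edgeR also called Serpinb1a (adjusted p = 0.0148).

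In mTEChi, the subset that expresses Aire and MHC class II strongly, the double mutants again had less Serpinb1a and Serpina1b. These were the 2 lower calls among 49 members tested, with 0 higher, beside 0.597% lower and 0.038% higher over all genes. Serpinb1a had 506, 483, 651 and 546 CPM in double-mutant mTEChi, against 1748, 1101, 1067 and 1210.0 CPM in control mTEChi. The groups were apart, with a log2 fold change of -1.22 ± 0.16 (SE, edgeR, adjusted p = 0.00230). Serpina1b had 0.153, 0.167, 0.125 and 0.249 CPM in double-mutant mTEChi, against 2.38, 7.64, 1.59 and 5.23 CPM in control mTEChi, with every mutant library under every control (log2 -4.45 ± 0.70, SE; edgeR, adjusted p = 0.0100). Leaving out the first double-mutant library moved its adjusted p to 0.0549, the largest over 12 alternatives, and Serpina9 was then called higher (log2 1.01, adjusted p = 0.0242).

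Serpinb6a had 235, 266, 188 and 218 CPM in double-mutant mTEChi and 306, 442, 340.1 and 258 CPM in control mTEChi, with overlap and no call in edgeR (log2 -0.56, adjusted p = 0.187). DESeq2 called it lower (log2 -0.57, adjusted p = 0.0439). Serpinb9 had 632, 478, 593 and 591 CPM in double-mutant mTEChi and 881, 770.1, 797 and 767 CPM in control mTEChi. Its groups were apart, but the edgeR adjusted p was 0.0664 (log2 -0.48). In DESeq2 Serpinb9 was called lower (log2 -0.49, adjusted p = 0.00407). DESeq2 called 5 members lower and 1 higher here, beside 313 lower and 103 higher of 19065 genes. Serpinc1 averaged 66.6 ± 10.7 CPM in double-mutant and 75.5 ± 12.2 CPM in control mTEChi (SD, n = 4 each), overlapping (log2 -0.17, adjusted p = 0.736). Enterocyte markers summed to 257 to 346 CPM in double-mutant and 522 to 632 CPM in control mTEChi, with 4 of 8 called lower, and 3 of 8 hepatocyte markers (Fga, Trf and Ttr) were called lower. Aire overlapped, at 1317 to 2164 CPM against 1345 to 2188 CPM. The part of these markers in the serpin results was not tested. Among serpin partners Tmprss2 was the 1 called gene of 60, at log2 -1.28 ± 0.15 (SE).

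Whether the double-mutant difference itself depended on the subset was tested as an interaction over 16 libraries. edgeR called 0 of 52 members, with 5 at an unadjusted p under 0.05 beside 11.4% of all genes. DESeq2 called 2, Serpina3g and Serpina9, beside 243 positive and 96 negative calls among 17883 genes. Over all genes in edgeR 0.0398% were called positive and 0.0199% negative. The interaction was 0.78 ± 0.28 for Serpinb1a (log2, SE; edgeR, adjusted p = 0.276), 0.57 for Serpinb6a (adjusted p = 0.335) and 0.42 for Serpina1b (adjusted p = 0.935), where a positive value means a smaller loss in mTEChi. The edgeR call of Serpinb6a in mTEClo and its missing edgeR call in mTEChi are therefore not shown to differ.

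The control subsets differed in more serpins than any removal. In control mTEChi against control mTEClo, antithrombin, several Serpina3 copies, the C1 inhibitor and Serpinb9 were higher and Serpinb6a, Serpinb11, Serpinb9e, Serpinb9f and Serpina10 lower. Of 52 members tested 25 were higher and 5 lower, beside 22.4% higher and 20.5% lower over all genes, and the median log2 fold change was 1.36 over the members and 0.04 over all genes.

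Serpinc1 had 63.3, 88.1, 66.9 and 83.7 CPM in control mTEChi, against 6.49, 15.7, 14.6 and 14.9 CPM in control mTEClo. Its mTEChi libraries all exceeded its mTEClo libraries, and it gave the smallest p of the family (log2 2.56 ± 0.23, SE; edgeR, adjusted p = 1.18e-07). A read pair lying wholly where exons of Serpinc1 and antisense Zbtb37 overlap cannot be assigned to either gene. Serping1 was at 35.5, 48.6, 73.3 and 49.7 CPM in control mTEChi and 8.74, 11.3, 5.90 and 22.6 CPM in control mTEClo (log2 2.10 ± 0.33, SE). Serpini1, neuroserpin, an inhibitor of tissue plasminogen activator, had 62.8, 63.5, 57.0 and 54.1 CPM in control mTEChi and 30.3, 39.9, 32.1 and 39.3 CPM in control mTEClo, a small step with little spread (log2 0.75 ± 0.15, SE). Serpine2, protease nexin-1, which inhibits thrombin and plasminogen activators, had 89.7, 43.3, 31.4 and 80.4 CPM in control mTEChi and 9.13, 22.5, 18.7 and 11 CPM in control mTEClo (log2 2.01 ± 0.40, SE). Clades C to I had 7 higher and 0 lower calls among 9 tested, and among them Serpine3 and Serpinf1 stood at most at 7.10 and 11.7 CPM in any control library.

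Clade A gave 10 higher and 1 lower call among 19 tested, 7 of the higher ones among 11 tested Serpina3 copies. Serpina3g had 143, 150.3, 126 and 124 CPM in control mTEChi, against 29.7, 47.6, 46.6 and 44.0 CPM in control mTEClo (log2 1.70 ± 0.22, SE). Serpina3i had 81.6, 56.2, 44.7 and 44.8 CPM in control mTEChi and 24.4, 23.1, 22.9 and 19.4 CPM in control mTEClo (log2 1.34 ± 0.21, SE). Both pairs of groups were apart. Serpina3n, in mice an inhibitor of granzyme B among others, had 13.4, 5.28, 2.90 and 13.3 CPM in control mTEChi and 0, 0.604, 0 and 0 CPM in control mTEClo (log2 5.75 ± 1.13, SE), and the fitted size was 8.94 without the second mTEClo library, the only one above 0. Serpina3m had 8.05, 3.82, 3.33 and 13.2 CPM in control mTEChi and 0.794, 0.151, 0.442 and 0.286 CPM in control mTEClo, and shares 28.1% of its windows. Serpina12, the adipokine vaspin, had 21.4, 28.4, 34.7 and 31.5 CPM in control mTEChi and 0.662, 4.68, 4.42 and 6.44 CPM in control mTEClo (log2 2.85 ± 0.53, SE). Serpina3f, Serpina3h, Serpina3j, Serpina9 and Serpina11 were the other higher members. Serpina10 was the lower one, with 14.1, 15.1, 7.09 and 10.3 CPM in control mTEChi against 25.6, 26.7, 32.6 and 37.0 CPM in control mTEClo (log2 -1.38 ± 0.30, SE).

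Clade B split into 8 higher and 4 lower calls among 24 tested. Serpinb9 had 881, 770.1, 797 and 767 CPM in control mTEChi, against 236, 299, 278 and 389.5 CPM in control mTEClo (log2 1.43 ± 0.15, SE; edgeR, adjusted p = 6.17e-07). Serpinb6b had 577, 410.2, 448 and 440.3 CPM in control mTEChi and 115, 136, 179.6 and 260.0 CPM in control mTEClo (log2 1.45 ± 0.18, SE). Its paralog Serpinb6a went the other way, at 306, 442, 340.1 and 258 CPM in control mTEChi against 537, 607, 848 and 815 CPM in control mTEClo (log2 -1.05 ± 0.16, SE; edgeR, adjusted p = 5.44e-05). None of these 3 pairs of groups overlapped. Serpinb10 had 65.5, 51.0, 53.4 and 26.6 CPM in control mTEChi and 12.3, 25.1, 22.3 and 14.4 CPM in control mTEClo (log2 1.41 ± 0.28, SE). Serpinb11, which in humans is thought not to inhibit proteases, had 104, 84.3, 74.3 and 50.7 CPM in control mTEChi and 284, 218, 207 and 187 CPM in control mTEClo (log2 -1.52 ± 0.19, SE).

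Within the Serpinb9 copies the directions differed. Serpinb9e had 3.11, 2.00, 0.145 and 2.50 CPM in control mTEChi against 30.1, 39.4, 22.0 and 16.3 CPM in control mTEClo (log2 -3.79 ± 0.44, SE), opposite to Serpinb9 itself and to Serpinb9b, which averaged 54.7 ± 21.8 CPM in control mTEChi and 3.63 ± 6.02 CPM in control mTEClo (SD, n = 4 each). Serpinb9f, at 0.114 to 0.290 CPM in control mTEChi and 0.429 to 3.54 CPM in control mTEClo, shares 84.1% of its windows, and its call was lost without the third mTEClo library (log2 -2.42, adjusted p = 0.0772) and without the fourth mTEChi library (adjusted p = 0.0583). The remaining higher members were Serpinb12, at 174 to 222 CPM in control mTEChi and 40.5 to 119 CPM in control mTEClo, and Serpinb1a, Serpinb1c and Serpinb13, whose groups overlapped. Serpinb1a averaged 1281 ± 317 CPM in control mTEChi and 901 ± 177 CPM in control mTEClo (log2 0.52 ± 0.20, SE; edgeR, adjusted p = 0.0460).

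**Figure D5:**
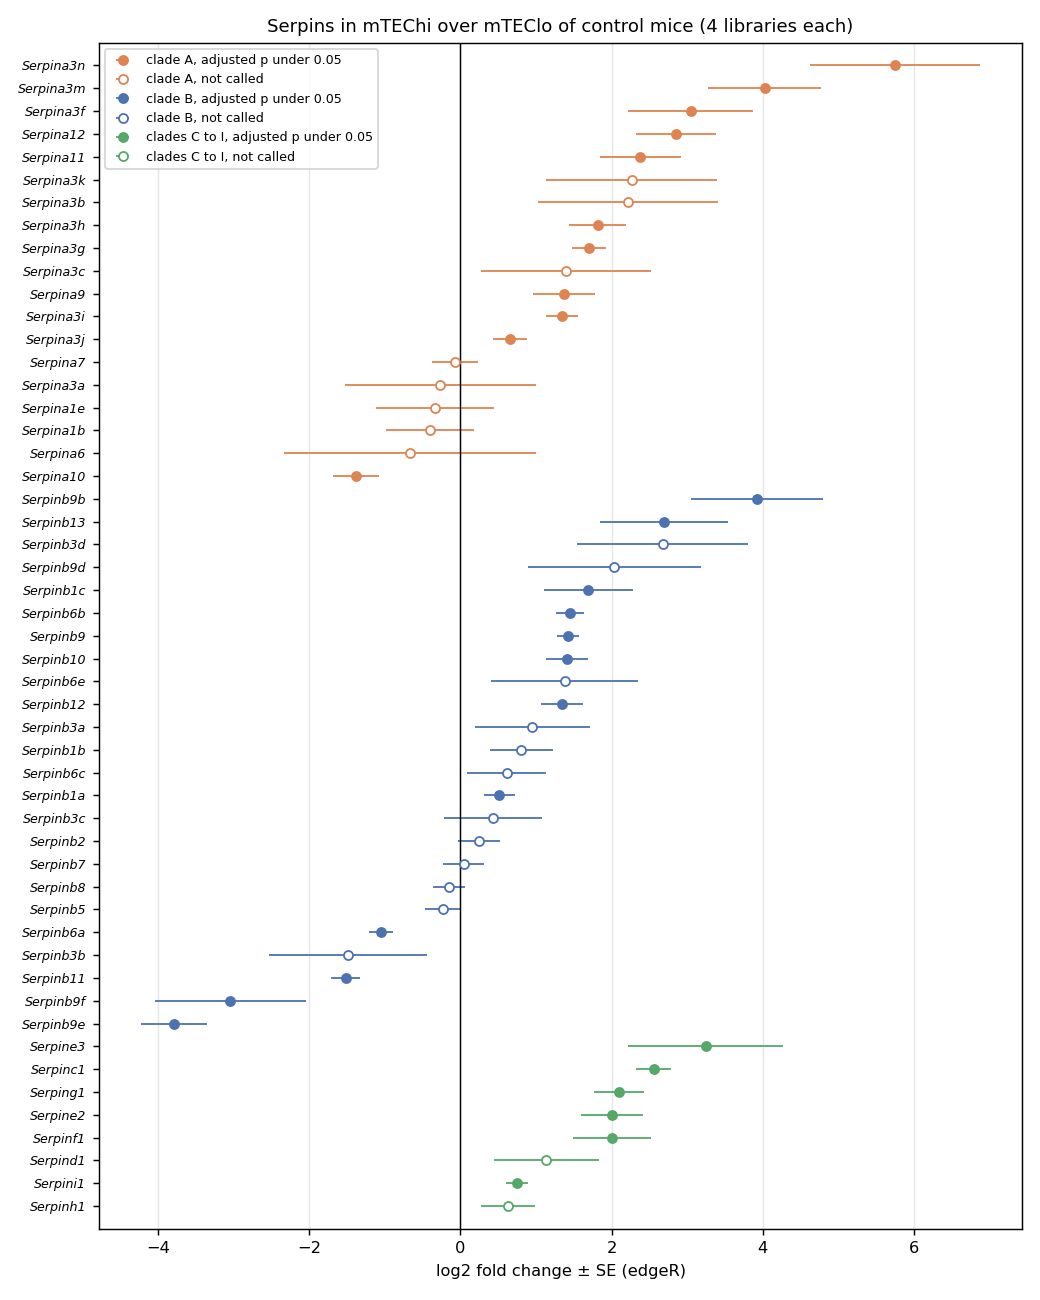
Log2 fold change (control mTEChi minus control mTEClo) of 51 of the 52 tested serpins, with bars of ± 1 SE and filled points for adjusted p under 0.05, arranged by clade. Serpinc1 at 2.56 and Serpinb9 at 1.43 lie to the right with short bars, and Serpinb9e at -3.79 and Serpinb11 at -1.52 lie to the left.

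Markers of blood, stroma and tuft cells differed between the control subsets too. Tuft markers summed to 339 to 555 CPM in control mTEChi and 6642 to 8876 CPM in control mTEClo, with 8 of 8 called lower. Myeloid markers summed to 1178 to 1636 CPM in control mTEChi against 320 to 592 CPM in control mTEClo. Fibroblast markers summed to 669 to 749 CPM in control mTEChi against 134 to 255 CPM in control mTEClo, and thymocyte markers to 46.8 to 75.9 CPM in control mTEChi against 11.5 to 24 CPM in control mTEClo. Of the gut and liver lists, 4 of 8 enterocyte and 5 of 8 hepatocyte markers were higher, and 1 hepatocyte and 3 of 6 microfold markers lower. Their part in the serpin differences was not tested. Of the serpin partners, 28 of 64 were higher in control mTEChi, led by Ctss, cathepsin S (log2 1.65), Ctsh (0.91), Casp1 (0.86) and Plaur, the urokinase receptor (3.71). The 9 lower ones included Prss8 (-0.76), Sdc1 (-0.55), F12 (-3.09) and Klk11 (-1.72).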

How the data were processed

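Per the labels' protocols, polyadenylated RNA of 1000 sorted cells was amplified by Smart-seq without molecular identifiers and read as paired ends of 38 bases, so reads are not independent molecules and intervals cover counting and library spread only. The deposited table holds whole-number read counts per gene, which the authors made with STAR 2.7.3a, featureCounts and mm10 per the submitters' processing notes; the gene annotation and how shared reads were counted are not stated in the notes or labels used. Each column matched a sample's title, leaving 0 unmatched. Counts were tested in edgeR 4.0.16 (R 4.3.3, limma 3.58.1; quasi-likelihood, TMM, filterByExpr with minimum count 10 and total 15), separately for the 6 wild-type, 14 mTEClo, 8 mTEChi and 16 control and double-mutant libraries, with Benjamini-Hochberg adjustment over all genes and calls at 0.05. The step was tested on simulated data with 200 changed genes a comparison. It recovered 35%, 41% and 51% of 2-fold changes for entero-hepato, double-mutant mTEClo and double-mutant mTEChi. Of 4-fold changes it recovered 74%, 66% and 80% in that order, with 9, 4 and 4 false calls. A gene not called may therefore still differ. CPM use TMM-scaled totals of all 28 libraries. Over 36 replicate pairs the chi-square of counts over its degrees of freedom ran from 5.93 to 24.2, and all libraries were counted separately. DESeq2 1.42.0, other scaling and filters, blocks and left-out libraries were alternatives. Members with values in each library were the 4 markers given with the family, called members (up to 12 a direction by smallest p) and the 10 highest per kilobase, while partners were the called ones of smallest p. Members, lists and this rule were chosen with earlier results of these data known. Genes named outside the rule were chosen after their values were seen. The values of 1 member, which stays in the counts, are not reported here.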

Additional observations from a re-analysis of the deposited data

Results flagged for a closer look

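In groups of 4 libraries, 108 sets of values of 27 serpins were examined for a single library whose gap to its nearest neighbour as a share of the range exceeded Dixon's 95% critical value, and 4 did (3.70%); chance alone gives about 1 in 20. Serpinc1 was 6.49 CPM in control mTEClo library 1, with the other three at 14.6 to 15.7 CPM. Serpina3i was 85.3 CPM in double-mutant mTEChi library 2, with the others at 52.1 to 56.9 CPM. Serpina3m was 0.291 CPM in double-mutant mTEClo library 4 and Serpina3n was 0.604 CPM in control mTEClo library 2, where the remaining libraries of the group were at 0. In such sets the gap fills the whole range whatever the value, so the rate of 1 in 20 does not hold for them.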

How the results depend on the processing

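The alternatives were checked only for the called serpins of smallest p in each direction of a comparison, and none of their log2 fold changes turned in sign. Other called serpins were not checked, Serpina3b, Serpinb1b and Serpinb7 in entero-hepato mTECs among them. Between the control subsets, Serpinb1a and Serpinb12 were among those not checked. The double-mutant mTEClo calls of Serpinb1a, Serpinb6a and Serpina1b were kept in all 14 alternatives. With no filter on low counts, the members called of 63 were 14 in double-mutant mTEClo, 10 in Hnf4g-removed and 4 in Hnf4a-removed mTEClo. They were 9 for Hnf4g-removed against Hnf4a-removed, 9 in double-mutant mTEChi and 4 for the interaction. Over all genes that setting called 224 higher and 743 lower of 45471 in double-mutant mTEClo. It called 196 and 286 in Hnf4g-removed, 93 and 119 in Hnf4a-removed, and 199 and 205 between the single removals. Double-mutant mTEChi gave 231 and 388 of 42788 genes, and the interaction 273 and 48 of 46394. DESeq2 called 4 members for Hnf4g-removed against Hnf4a-removed, 6 in double-mutant mTEChi and 2 for the interaction. Over all genes DESeq2 called 36 higher and 59 lower of 19284 for Hnf4g-removed against Hnf4a-removed. It called 103 and 313 of 19065 in double-mutant mTEChi, and 243 and 96 of 17883 for the interaction. Hnf4g-removed mTEClo gave 1 call with the replicate block, 1 in a fit of the compared groups alone and 1 without the mTEClo libraries numbered 1 (a setting chosen after seeing the data, as their Aire was lowest in their groups); in a fit of the compared groups alone, Hnf4g-removed against Hnf4a-removed gave 0. Leaving out each library in turn gave 19 to 21 calls for entero-hepato, 3 to 3 for double-mutant mTEClo, 0 to 2 for Hnf4g-removed, 0 to 0 for Hnf4a-removed, 0 to 2 for Hnf4g-removed against Hnf4a-removed, 2 to 2 for double-mutant mTEChi (1 higher and 1 lower without double-mutant library 1), 26 to 31 for control mTEChi against mTEClo and 0 to 0 for the interaction. Libraries were not treated as paired in the main fits. Deviations of 36 same-numbered pairs correlated at -0.0223 to 0.183, with 2 over 0.1. Both joined mTEClo libraries numbered 1, Hnf4g-removed with control (0.181) and with Hnf4a-removed (0.183). The sample titles number thymi, and whether sorted subsets with the same number came from the same thymus is not known here. Depth limits members at 1 CPM or less, where a library holds few counts, and 9 members passed no filter. The cause of these shifts was not tested.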

Other observations

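Serpina6 and Serpinb6d were each carried mostly by 1 library, and the values in this paragraph were picked out after they were seen. Serpina6, the corticosteroid-binding globulin of plasma, was 30.7 CPM in double-mutant mTEClo library 4, which is 59.1% of its summed CPM over all libraries, and at most 6.82 CPM in any other. Serpinb6d was 22.8 CPM in Hnf4a-removed mTEClo library 1 (56.7% of its sum) and at most 5.16 CPM elsewhere. Serpinb3b was 12.7 CPM in control mTEClo library 4, against 0.397 to 0.737 CPM in the other controls of that subset. Serpina9, known from germinal centre B cells, averaged 62.7 ± 27.8 CPM in double-mutant mTEChi and 37.9 ± 6.64 CPM in control mTEChi (SD, n = 4 each), with 4.83 ± 3.25 CPM in double-mutant mTEClo and 14.8 ± 7.23 CPM in control mTEClo.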
